A study of Mus musculus with 4 samples.

Results

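The genes described here were silent in both control libraries and present in at least 1 mutant library of leptotene/zygotene (L/Z) spermatocytes. They were chosen on the measured values themselves. A gene entered when the deposited table listed at most 3 fragments, counted before any scaling, in the Dnmt3L_Het and in the Pld6 WT library and at least 10 fragments in the Pld6 KO or the Dnmt3L KO library. Genes named Mir or Snor and 5 genes picked out by name (Tecrl, 2310043L19Rik, Afm, Cdh19 and Ly6d) were left out. Of the 23980 genes of the table, 273 (1.14%) met these limits. Below, "silent" means at most 3 fragments and "on" means at least 10. Both calls follow from the choice, so the levels and folds are given as a description and no test was made of them.

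RNA with polyA tails was sequenced from L/Z spermatocytes purified by FACS, germ cells at the start of meiosis, from mice of 3 to 4 weeks. All animals were F1 hybrids of C57BL/6J and MSM/Ms, and each of the 4 genotypes gave 1 library: Pld6 WT, Pld6 KO, Dnmt3L_Het, which carries a mutant and a normal Dnmt3l allele, and Dnmt3L KO. The F1 animals came from crosses between heterozygotes held on the 2 strain backgrounds. No genotype has a replicate, and the controls differ from each other in genotype and line. How many animals went into a library was not given in the sources used here.

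Pld6 encodes an enzyme of the phospholipase D family that is needed to make piRNAs, the small RNAs that guide silencing of retrotransposons in male germ cells. Dnmt3l encodes a cofactor without catalytic activity of its own that the de novo DNA methyltransferases need in the male germ line. Both systems keep retrotransposons silent, and a retrotransposon that becomes active can also drive transcription of a gene beside it. Genes of other tissues, such as those of the liver, the nose or the immune system, are normally silent in spermatocytes.

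The promoters of 5 of the 273 genes show the kind of sequence involved. Gc and Reg2 held the most fragments among genes on in both mutants, Wfdc18 and Olfr39 the most in Dnmt3L KO among genes at 0 in Pld6 KO, and Il23r the most in Pld6 KO among genes at 0 in Dnmt3L KO. Each line gives 250 bases before and 50 bases after the RefSeq start, 5′ to 3′ on the strand of the gene, with CpG dinucleotides, the sites of DNA methylation, in capitals.
Gc: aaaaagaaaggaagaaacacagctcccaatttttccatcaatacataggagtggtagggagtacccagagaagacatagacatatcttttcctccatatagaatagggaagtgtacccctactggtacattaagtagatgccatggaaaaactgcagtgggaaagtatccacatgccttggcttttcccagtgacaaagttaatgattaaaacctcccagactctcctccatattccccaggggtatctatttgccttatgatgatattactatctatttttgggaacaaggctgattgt
Reg2: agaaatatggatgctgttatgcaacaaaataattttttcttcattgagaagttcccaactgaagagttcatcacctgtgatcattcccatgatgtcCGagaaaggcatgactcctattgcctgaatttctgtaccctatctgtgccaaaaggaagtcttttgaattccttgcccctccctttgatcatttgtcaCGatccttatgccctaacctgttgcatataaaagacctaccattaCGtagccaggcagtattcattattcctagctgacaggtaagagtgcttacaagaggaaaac
Wfdc18: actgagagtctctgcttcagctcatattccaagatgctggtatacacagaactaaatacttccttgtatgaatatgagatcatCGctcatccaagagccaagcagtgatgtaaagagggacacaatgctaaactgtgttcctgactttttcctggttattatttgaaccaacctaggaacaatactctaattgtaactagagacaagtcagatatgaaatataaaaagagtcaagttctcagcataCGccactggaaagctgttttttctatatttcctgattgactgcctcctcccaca
Olfr39: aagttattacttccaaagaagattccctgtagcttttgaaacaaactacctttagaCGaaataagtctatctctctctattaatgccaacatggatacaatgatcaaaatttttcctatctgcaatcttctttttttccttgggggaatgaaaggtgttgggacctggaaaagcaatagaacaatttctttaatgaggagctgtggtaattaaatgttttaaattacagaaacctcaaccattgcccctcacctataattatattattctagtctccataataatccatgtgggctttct
Il23r: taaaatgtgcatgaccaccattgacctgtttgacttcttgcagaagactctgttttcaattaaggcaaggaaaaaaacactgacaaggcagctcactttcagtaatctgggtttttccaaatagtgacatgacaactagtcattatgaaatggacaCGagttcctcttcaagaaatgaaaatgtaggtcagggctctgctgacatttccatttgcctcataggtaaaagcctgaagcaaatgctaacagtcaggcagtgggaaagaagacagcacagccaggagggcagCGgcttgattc
These windows lie at chr5:89457849-89458148 on the minus strand (Gc), chr6:78404905-78405204 on the plus strand (Reg2), chr11:83708754-83709053 on the plus strand (Wfdc18), chr9:20282101-20282400 on the plus strand (Olfr39) and chr6:67491806-67492105 on the minus strand (Il23r) of GRCm38.p6, the assembly whose coordinates mm10 shares. CpG was rare in them, with 0 in Gc, 3 in Reg2, 2 in Wfdc18, 1 in Olfr39 and 2 in Il23r. The motif TATAAA, sought on both strands, began 30 bases before the start of Reg2 and 31 bases before the start of Wfdc18 and was not found in the other windows. Whether transcription began at these starts cannot be read from counts per gene.

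Among 3708 silent genes that were neither Mir nor Snor nor left out by name, 126 (3.4%) were on in Pld6 KO and 175 (4.72%) in Dnmt3L KO. With every library scaled to the depth of Pld6 KO, the shallowest, the counts were 136 and 101, so which mutant had more depended on the scaling. Together they made 273 genes (7.36%), of which 98 were on in Pld6 KO alone, 147 in Dnmt3L KO alone and 28 in both. The shared genes were 22.2% of the Pld6 KO list and 16% of the Dnmt3L KO list, and both lists rest on the same controls. Most of these genes were low. Each list had a median of 16 fragments, and 90 of 126 and 115 of 175 genes, for Pld6 KO and Dnmt3L KO in turn, held fewer than 20. An FPKM (fragments scaled to gene length and library depth) of at least 1 was reached by 17 genes in Pld6 KO and 22 in Dnmt3L KO.

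Of the 98 genes on in Pld6 KO alone, 73 (74.5%) were at 0 in Dnmt3L KO, 12 had 1 to 3 fragments and 13 had 4 to 9. Among the 3582 silent genes not on in Pld6 KO, 89.0% were at 0 in Dnmt3L KO. Unlike the 98, these 3582 still hold genes on in Dnmt3L KO. Of the 147 genes on in Dnmt3L KO alone, 122 (83.0%) were at 0 in Pld6 KO, 8 had 1 to 3 fragments and 17 had 4 to 9. Among the 3533 silent genes not on in Dnmt3L KO, 92.8% were at 0 in Pld6 KO. Unlike the 147, these 3533 still hold genes on in Pld6 KO, so neither pair of shares is over like sets. In the controls 103 of the 273 genes were at 0 in both libraries. Dnmt3L_Het was at 0 for 246 genes and Pld6 WT for 110, although Dnmt3L_Het was the deeper library.

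**Figure D1:**
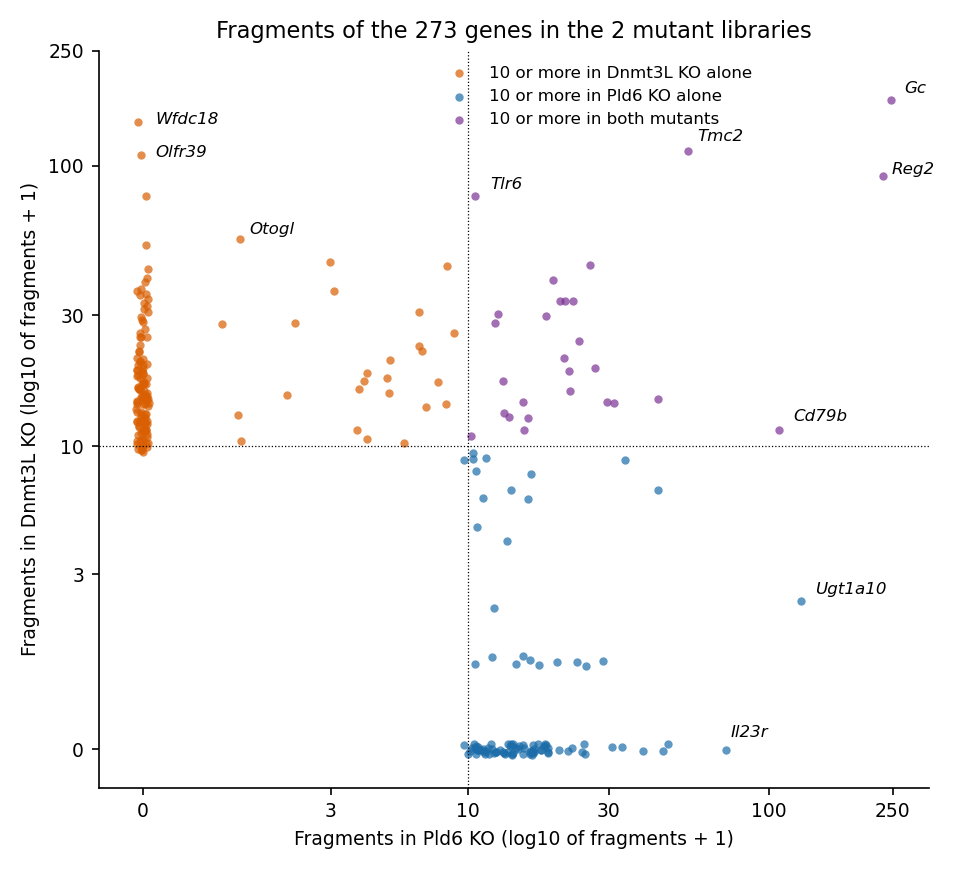
Fragments of each of the 273 genes in Pld6 KO (x axis) and Dnmt3L KO (y axis), on a log10 scale of fragments + 1, with a small shift added to each point so that equal values can be seen. Dotted lines mark 10 fragments. Most points lie on the axes at 0 fragments in the other mutant, and Gc, Reg2 and Tmc2 stand far from both.

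The libraries differed in depth and in how low counts were distributed, which sets what 10 fragments mean. Fragments in genes ranged from 30439943 in Pld6 KO to 63875934 in Dnmt3L_Het, with 40541149 in Pld6 WT and 49932330 in Dnmt3L KO. In Pld6 WT 663 genes of the whole table stood at 1 fragment and 130 at 10. In Dnmt3L_Het, the numbers were 101 and 91, in Dnmt3L KO 184 and 115 and in Pld6 KO 191 and 110, so that in these 3 libraries the fall from 1 to 10 fragments was far flatter than in Pld6 WT. Reads carried no molecular identifiers, so how many RNA molecules stand behind 10 fragments is not known, and intervals given below cover counting error only.

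Genes seen in a single library were not particular to the mutants. By the same limits 253 genes were on in Dnmt3L_Het and silent in the other 3 libraries, against 130 for Dnmt3L KO, 85 for Pld6 KO and 58 for Pld6 WT. In the opposite direction, 1113 of 4732 genes that were silent in both mutants (23.5%) were on in a control. The libraries of cells sorted as L/Z spermatocytes also differed in their RNA of cell type markers. The median FPKM of 16 spermatid markers was 60.4 in Dnmt3L_Het, 13.5 in Pld6 WT, 0.481 in Dnmt3L KO and 0.551 in Pld6 KO, and that of 16 Sertoli cell markers was 115 in Dnmt3L_Het, 150.9 in Dnmt3L KO, 19.1 in Pld6 KO and 5.68 in Pld6 WT. The 20 markers of L/Z spermatocytes were present in all libraries, with medians from 65.9 to 178 FPKM. In bulk libraries, fewer cells of a type and less RNA per cell cannot be told apart. The targeted genes were lowest in their own knockouts, with Pld6 at 14 fragments in Pld6 KO against 592 to 1643 in the other libraries and Dnmt3l at 0 fragments in Dnmt3L KO against 20 to 101.

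**Figure D2:**
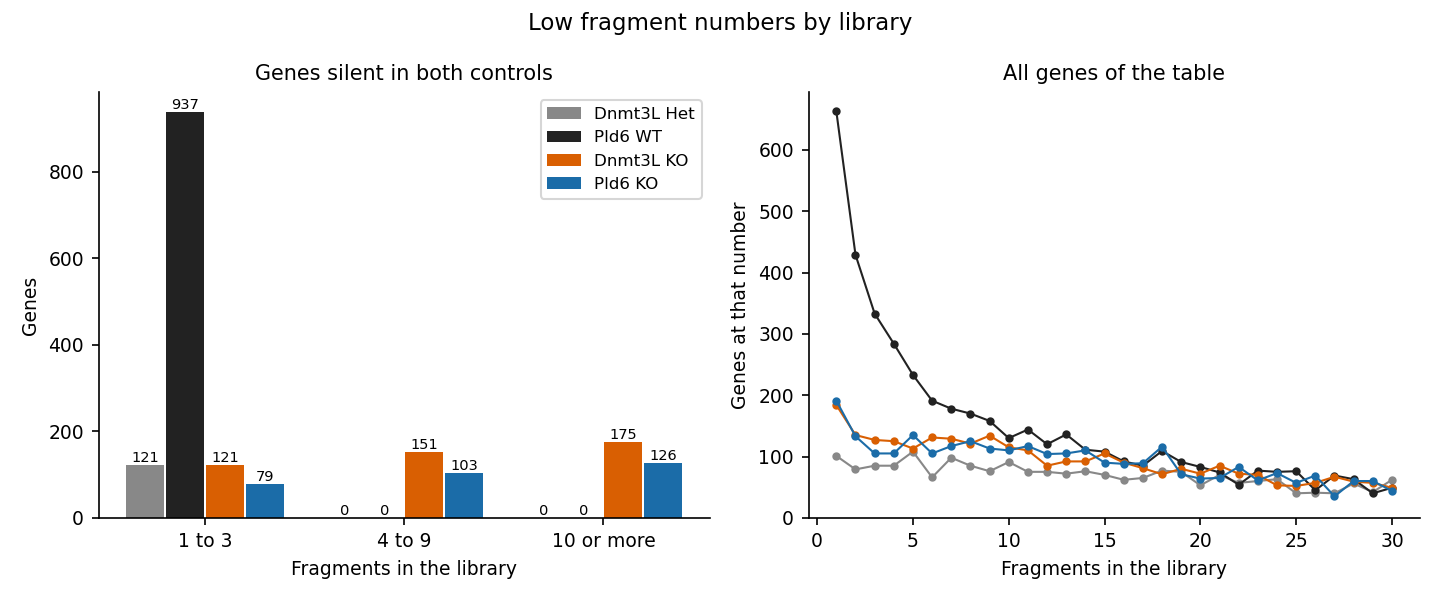
Left, number of the 3708 silent genes with 1 to 3, 4 to 9 and 10 or more fragments in each library; the controls are at 0 above 3 fragments by choice. Right, number of genes of the whole table (Mir, Snor and the genes left out by name not counted) at each number of fragments from 1 to 30, where Pld6 WT starts at 663 genes and the other libraries lie between 101 and 191.

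The genes on in both mutants were led by secreted proteins of the liver and pancreas. Gc encodes the vitamin D binding protein of plasma (chromosome 5, 89417511 to 89457898). It was at 0 fragments in Dnmt3L_Het and Pld6 WT, 170 in Dnmt3L KO and 253 in Pld6 KO, that is, 2.23 and 4.96 FPKM. Folds of genes at 0 in both controls are given against a floor of 3 fragments over the pooled controls, scaled to library totals. Against that floor Gc was at least 118-fold higher in Dnmt3L KO and at least 289-fold higher in Pld6 KO. Such a fold takes the mutant count as exact, so counting error could put it lower. Reg2 encodes a secreted C-type lectin of the pancreas (chromosome 6, 78405155 to 78408099). It was likewise at 0 in both controls, while Dnmt3L KO held 89 fragments and Pld6 KO 230. Reg2 was at least 62-fold and at least 263-fold higher, respectively, and its 14.8 FPKM in Pld6 KO was the highest level in that library among all genes on there. Tmc2, a subunit of the mechanotransduction channel of hair cells (chromosome 2, 130195194 to 130265189), had 0 and 3 fragments in Dnmt3L_Het and Pld6 WT, 116 in Dnmt3L KO and 54 in Pld6 KO. Its ratio to the pooled controls was 80.9 in Dnmt3L KO (95% exact interval 27 to 398) and 61.7 in Pld6 KO (20 to 309). For these 3 genes both mutants lay far above both controls.

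Some of the genes on in both mutants have roles in innate immunity. Casp4, an inflammatory caspase that senses bacterial lipopolysaccharide, had 1 and 3 fragments in Dnmt3L_Het and Pld6 WT, 47 in Dnmt3L KO and 26 in Pld6 KO. Marco, a scavenger receptor of macrophages, was at 0 in both controls and had 33 and 21 fragments in Dnmt3L KO and Pld6 KO. Clec1b, a C-type lectin receptor of platelets, was at 0 in both controls and had 28 and 12. Tlr6, which senses bacterial lipopeptides together with Tlr2, was uneven, with 1 and 3 fragments in Dnmt3L_Het and Pld6 WT, 79 in Dnmt3L KO and 11 in Pld6 KO. The inflammasome gene Nlrp6 had 0 and 2 fragments in the controls and 13 in each mutant. Macrophage markers, 10 genes of which none was a member, had a median of 10.9 FPKM in Dnmt3L_Het, 2.43 in Pld6 WT, 13 in Dnmt3L KO and 5.42 in Pld6 KO. The part of macrophage RNA in these values was not tested.

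Further genes on in both mutants have other roles. Inhba, the activin beta A subunit, had 0 and 1 fragments in the controls, 40 in Dnmt3L KO and 20 in Pld6 KO. Ctf2, a cytokine related to cardiotrophin, was at 0 in both controls with 29 and 19 fragments in the Dnmt3L and Pld6 mutants, and its exons overlap those of Ctf1 on the opposite strand, which had 18 to 143 fragments. Ugt3a2, a UDP glycosyltransferase, had 0 and 1 in the controls, 35 in Dnmt3L KO and 23 in Pld6 KO. Bglap3, an osteocalcin-related gene, had 0 and 1, then 24 and 25. Lsamp, a neuronal cell adhesion protein, had 1 and 2, then 35 and 21, and Slc7a10, an amino acid transporter of astrocytes, had 0 and 3, then 22 and 21. The serpin Serpina3f had 2 and 1, then 19 and 23. Among the 15 shared genes with the highest smaller value, 2 without a known function that can be stated here were Gm20362 (29 and 13 fragments in Dnmt3L KO and Pld6 KO) and 5830411N06Rik (19 and 28). These mutant values lay above those of both controls for each gene, which the choice of genes requires.

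**Figure D3:**
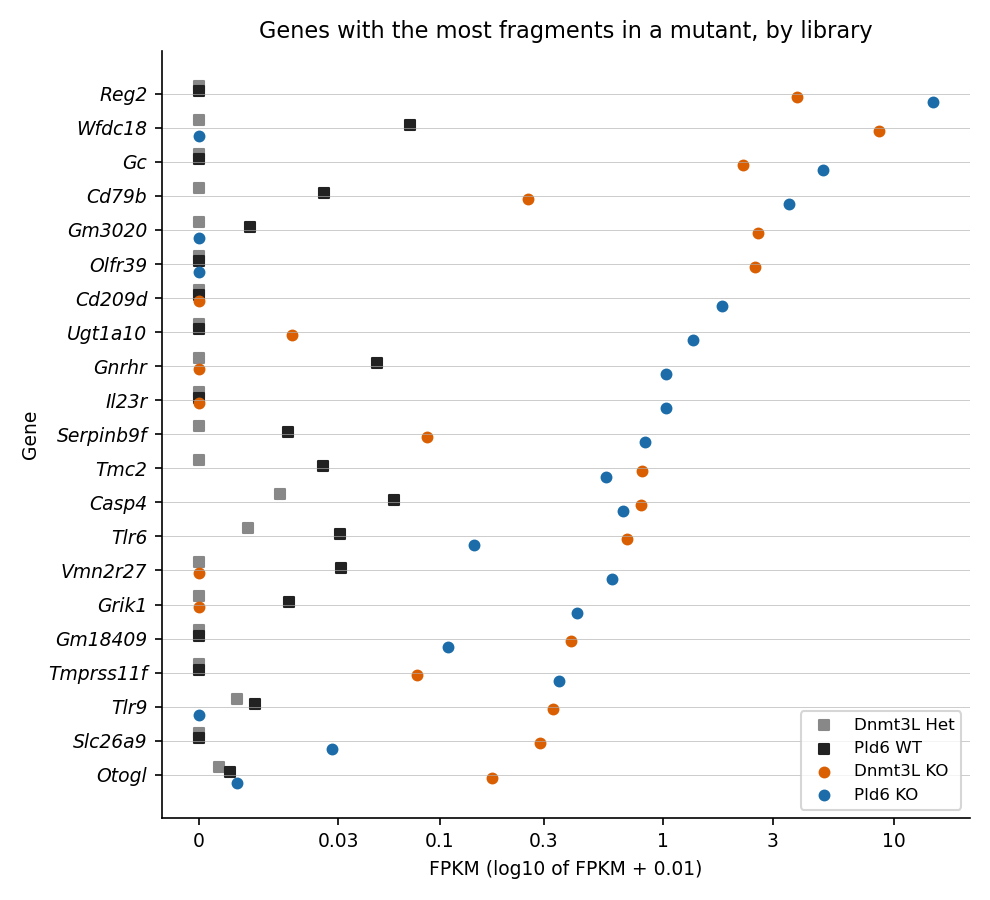
FPKM (log10 of FPKM + 0.01) of the genes with the most fragments in either mutant, 1 point per library, squares for controls and circles for mutants. Reg2, Wfdc18 and Gc have the highest levels, and for Wfdc18, Gm3020, Olfr39 and Tlr9 the Pld6 KO point lies at 0 FPKM.

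Pld6 KO held B cell genes. Cd79b, the beta chain of the B cell antigen receptor (chromosome 11, 106311341 to 106314562), had 0 and 1 fragments in Dnmt3L_Het and Pld6 WT, 12 in Dnmt3L KO and 111 in Pld6 KO, a ratio of 381 to the pooled controls in Pld6 KO (95% exact interval 66.9 to 15173). Its partner chain Cd79a, which is no member because the controls had 40 and 34 fragments, had 6 in Dnmt3L KO and 281 in Pld6 KO. Of 14 B cell genes listed after Cd79b had been seen, 13 had their highest value, scaled to library totals, in Pld6 KO and 1, Cr2, in Dnmt3L_Het. Their summed level was 27.0 FPKM in Pld6 KO and 3.74 to 5.76 FPKM in the other libraries, with Cr2 at 0 in Pld6 KO. The list holds Cd79b and Blk, which were chosen for being on in a mutant. Without them 11 of 12 genes were highest in Pld6 KO, and the summed level was 23.3 FPKM there and 3.49 to 5.76 FPKM elsewhere. Blk, a tyrosine kinase of B cells and a member, had 13 in Pld6 KO, 2 in Pld6 WT and 0 in the others. Pax5, which sets B cell identity, stood just outside the limits with 0 and 4 fragments in Dnmt3L_Het and Pld6 WT, 16 in Dnmt3L KO and 50 in Pld6 KO. The part of B cell RNA in the Pld6 KO list was not tested.

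The remaining leading genes of Pld6 KO came from many tissues. Ugt1a10, a UDP glucuronosyltransferase of the gut, was at 0 in both controls, at an estimated 2.21 fragments in Dnmt3L KO, and at 130 in Pld6 KO. Its exons are shared with those of other Ugt1a genes, among them Ugt1a6a with 52.6 to 570 fragments, so the division of reads among them is an estimate. Il23r, the receptor chain for interleukin 23 on T cells (chromosome 6, 67422932 to 67491855), was at 0 in Dnmt3L_Het, Pld6 WT and Dnmt3L KO and had 75 fragments in Pld6 KO, at least 85.8-fold above the controls. Cd209d, a C-type lectin of the DC-SIGN family, was at 0 in the same 3 libraries with 38 in Pld6 KO. Grik1, a kainate receptor subunit, had 0 and 2 fragments in the controls, 0 in Dnmt3L KO and 45 in Pld6 KO. Vmn2r27, a vomeronasal receptor, had 0 and 3, then 0 and 45. Serpinb9f, a serpin, had 0 and 1 in the controls, 7 in Dnmt3L KO and 45 in Pld6 KO. Tmprss11f, a membrane protease of epithelia, had 0 and 0, then 15 and 45. Slc6a3, the dopamine transporter, had 0 and 2, then 9 and 33. Gnrhr, the pituitary receptor for gonadotropin-releasing hormone, had 0 and 2 in the controls, 0 in Dnmt3L KO and 33 in Pld6 KO.

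Of the 12 genes with the most fragments in Dnmt3L KO, 4 were at 0 in Pld6 KO and 5 (Gc, Reg2, Tmc2, Casp4 and Tlr6, described above) were on there. Wfdc18, a secreted protein with a WAP domain found in mammary gland and other epithelia (chromosome 11, 83709004 to 83711360), had 0 fragments in Dnmt3L_Het, 1 in Pld6 WT, 140 in Dnmt3L KO and 0 in Pld6 KO. It stood at 8.64 FPKM in Dnmt3L KO, and its fragments there, scaled to library totals, were 293 times those of the pooled controls (95% exact interval 51.7 to 11645). Olfr39, an odorant receptor (chromosome 9, 20282351 to 20286648), was at 0 in both controls and in Pld6 KO and had 107 fragments in Dnmt3L KO, at least 74.6-fold above the controls. Gm3020, a predicted gene with fractional estimates, had 0 and 0.175 fragments in the controls, 79.5 in Dnmt3L KO and 0 in Pld6 KO. Otogl, a protein of the acellular membranes of the inner ear, had 1 fragment in each control, 56 in Dnmt3L KO and 1 in Pld6 KO. Tlr9, the receptor for CpG DNA, had 1 in each control, 51 in Dnmt3L KO and 0 in Pld6 KO. Slc26a9, a chloride transporter of stomach and airway, had 0 and 0, then 47 and 3. Gm18409 had 0 and 0, then 43 and 8. Il4i1, an amino acid oxidase of immune cells, had 42.7 estimated fragments in Dnmt3L KO and at most 0.143 elsewhere, but its exons overlap those of Nup62 on the same strand, which had 4121 to 7297. Spink3, a pancreatic trypsin inhibitor, was at 0 in both controls and in Pld6 KO and had 41 fragments in Dnmt3L KO. The short RNAs Scarna3a and Rnu11 had 22 and 14 fragments in Dnmt3L KO, which their length turns into 104 and 92.2 FPKM.

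Immune receptors, cytokines and effectors, a class assigned by hand with no count of its silent genes, gave 43 genes, 24 on in Pld6 KO, 26 in Dnmt3L KO and 7 of them in both. Besides the genes above, it held T and natural killer cell genes such as Prf1 (perforin, 20 fragments in Dnmt3L KO), Klrk1 (14 in Pld6 KO) and Nkg7 (10 in Pld6 KO). Cytokines included Ifnk (20 in Dnmt3L KO), Il9 (17 in Pld6 KO) and Osm (14 in Pld6 KO). Of 17 lymphocyte and granulocyte markers, 2 (Cd79b and Nkg7) were members, and the summed level of the list was 18.7 FPKM in Pld6 KO and 6.06 to 10.3 FPKM in the other libraries. T cell markers of the list went in different directions. Cd3e, a chain of the T cell receptor complex, had 608 and 346 fragments in Dnmt3L_Het and Pld6 WT, 173 in Dnmt3L KO and 119 in Pld6 KO. Cd2, an adhesion receptor of T cells, had 19 and 6 in the controls, then 91 and 37, and Cd4 had 13 and 3, then 30 and 0. Ncr1, S100a8 and S100a9 were at 0 everywhere. The part of leukocyte RNA in this class was not tested.

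Chemosensory receptors gave 32 genes, 13 on in Pld6 KO and 20 in Dnmt3L KO, but they are also the most numerous silent genes. Of 1117 olfactory receptors in the table, 1041 were silent, and 22 of those (2.11%) were on in a mutant, below the 7.36% of all silent genes. For vomeronasal receptors it was 7 of 283 (2.47%) and for taste and trace amine receptors 2 of 50 (4%). Besides Olfr39, Olfr153 had 0 and 3 fragments in the controls, 34 in Dnmt3L KO and 0 in Pld6 KO. Olfr196 was at 0 in both controls, 30 in Dnmt3L KO and 7 in Pld6 KO, and Olfr873 was at 27 in Dnmt3L KO and 0 elsewhere. Olfr1270 was the single olfactory receptor on in both mutants, with 13 and 16 fragments in Dnmt3L KO and Pld6 KO.

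Proteins of the nervous system and sense organs other than chemosensory receptors gave 27 genes, 17 on in Pld6 KO, 14 in Dnmt3L KO and 4 in both. This class too was assigned by hand with no count of its silent genes, so its share cannot be set beside that of all silent genes. Besides Grik1, Gabrd, a subunit of the GABA-A receptor, had 19 fragments in Pld6 KO, 0 in Dnmt3L KO and Dnmt3L_Het and 3 in Pld6 WT. Of 20 silent channel genes, 5 (25%) were on in Pld6 KO and 1 (5%) in Dnmt3L KO, against 3.4% and 4.72% of all silent genes. Kcnj1, a potassium channel of the kidney, had 28 fragments in Pld6 KO, 1 in Dnmt3L KO and 1 and 3 in the controls. Crx, a transcription factor of photoreceptors, had 18 fragments in Pld6 KO and 0 in Dnmt3L KO.

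Liver, plasma and detoxification proteins gave 21 genes, 14 on in Pld6 KO, 13 in Dnmt3L KO and 6 in both. The silent genes of this class, assigned by hand, were not counted, so no share can be given. The 21 genes included F9, clotting factor IX, with 21 fragments in Pld6 KO against 1 in Dnmt3L KO. Among them was also Mup3, a major urinary protein, with 31 against 15. Of 23 silent UDP glucuronosyltransferases and sulfotransferases, 4 (17.4%, against 3.4% of all silent genes) were on in Pld6 KO, namely Ugt1a10, Ugt1a9, Ugt3a2 and Sult2a1, and 2 of these (8.7%, against 4.72%) in Dnmt3L KO too. Ugt1a10 and Ugt1a9 share exons with each other and with further Ugt1a genes. Their fragments are divided estimates, so these shares do not rest on separate calls. Of 45 silent cytochromes P450, 4 (8.89%) were members, near the 7.36% of all silent genes, with Cyp3a13 and Cyp2b23 on in Pld6 KO (16 and 10 fragments) and Cyp4x1 and Cyp4a14 in Dnmt3L KO (19 and 10). None of the P450 genes was on in both.

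Secreted protease inhibitors, proteases and epithelial proteins gave 25 genes, 11 on in Pld6 KO, 17 in Dnmt3L KO and 3 in both. For this class, likewise assigned by hand, the silent genes were not counted. The WAP and Kazal inhibitors had 4 of 16 silent genes on (25%, against 7.36% of all silent genes), Wfdc18, Wfdc17 and Spink3 in Dnmt3L KO and Spink5, which is needed for the skin barrier, in Pld6 KO with 21 fragments. Of 45 silent defensins 3 (6.67%) were on, near the 7.36% of all silent genes. Defb48 had 35 fragments in Dnmt3L KO and 0 elsewhere, Defb11 had 24 in Dnmt3L KO, 7 in Pld6 KO and 1 in Pld6 WT, and Defb29 had 14 in Pld6 KO and 1 in Pld6 WT. Defb11 and Spint4 were the members among 13 markers of epididymal epithelium, of which 6 (Crisp1, Lcn5, Lcn8, Lcn9, Defb9 and Rnase9) were at 0 in all libraries. Cst8, the highest of that list, had 2766 fragments in Dnmt3L_Het and 56 to 357 in the other libraries. Of genes named as keratins, keratin-associated or cornified envelope proteins, 1 of 110 silent genes was on (0.909%), namely Krtap5-5. The keratin-associated members Gm11559 and Gm11567 are not in that count because of their names.

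**Figure D4:**
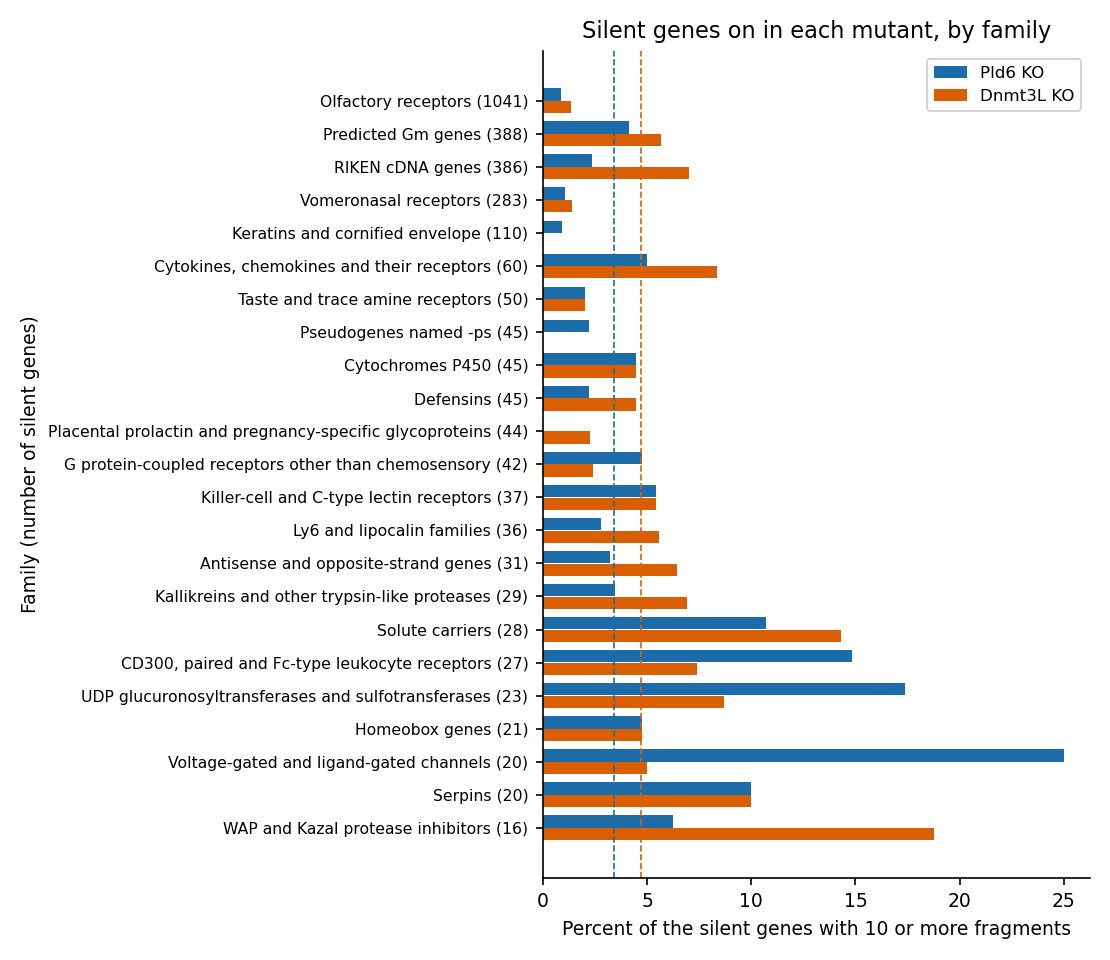
Share of the silent genes of each family that were on in Pld6 KO (blue) and Dnmt3L KO (orange), for families with at least 16 silent genes, whose number stands in brackets. Dashed lines mark the shares over all silent genes, 3.4% and 4.72%. Olfactory receptors, the largest family, lie below both lines.

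Gene type and position were not used in choosing the genes. RefSeq gave a position for 270 of the 273. Of these, 209 (77.4%) were protein coding and 53 (19.6%) lncRNAs, against 82.2% and 14.7% of the 3391 other silent genes with a position. Among genes on in Pld6 KO, 84.1% were protein coding and 15.1% lncRNAs, and among those on in Dnmt3L KO, 75% and 20.9%. Predicted and RIKEN cDNA names made 36 and 34 of the 273. These were 9.28% of 388 and 8.81% of 386 silent genes so named, near the 7.36% of all silent genes. The X chromosome held 16 (5.93%), against 2.15% of the other silent genes and 4.22% of all genes. The longest GENCODE transcript had a median of 2013 bases for the 254 genes with one, 1899 for other silent genes and 2867 for all genes. Chemosensory receptors weigh more among the other silent genes. Without them 2090 of 3435 other silent genes were left, against 241 of 273 members. The shares of gene types and of the X chromosome and the transcript lengths were not computed without these receptors, so they carry this difference. Exons of 26 members overlapped those of another gene, and for 22 of them that gene had more than 10 fragments in a library, mostly on the opposite strand. Overlaps were not counted for the other silent genes, so this number has no background beside it. The library kit keeps the strand, but whether it was used in counting was not given in the sources used here.

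Members lay near each other about as often as other silent genes lay near a member. Of the 270 with a position, 27 (10%) had another member within 100 kb, and 355 of 3391 other silent genes (10.5%) had a member that close. The 27 genes made 15 pairs, and in 12 of these both genes were on in the same mutant. How often pairs of members share a mutant at any distance was not counted, so the 12 have no background beside them. Among the 12 were Ugt1a10 and Ugt1a9, which share exons. Several pairs were paralogs. Olfr39 and Olfr873, 13.6 kb apart, were at 107 and 27 fragments in Dnmt3L KO and at 0 in every other library. Cd209d and Cd209e, 17.5 kb apart, were at 38 and 11 fragments in Pld6 KO alone. The lymphocyte receptors P2ry10 and A630033H20Rik on the X chromosome had 25 and 12 in Pld6 KO. Olfr467 and Olfr470 had 14 and 13 in Pld6 KO, Olfr1248 and Olfr1251 had 12 and 18 in Dnmt3L KO, Wfdc17 and Wfdc18 had 16 and 140 in Dnmt3L KO, the keratin-associated Gm11559 and Gm11567 had 10 and 15 in Pld6 KO, and Bglap and Bglap3 had 17 and 25 in Pld6 KO. Unrelated neighbours were Has1, a hyaluronan synthase, with Fpr1, a neutrophil receptor for formyl peptides (23 and 10 in Dnmt3L KO), and Ifitm5, a protein of bone, with Nlrp6 (12 and 13 in Pld6 KO). The 3 pairs without a shared mutant were those of Olfr196 with Olfr193 and Olfr195 and the globin genes Hba-x and Hbq1a, which had 16 fragments in Pld6 KO and 14 in Dnmt3L KO, respectively. Reads of paralogs may be divided among copies, which can leave fractional estimates. Ugt1a10 and Ugt1a9 had fractional estimates (130.25 and 22.49 in Pld6 KO), while Bglap and Bglap3 had whole counts in every library. The part of divided reads in these pairs was not tested.

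Promoter sequence gave a second property outside the choice. A RefSeq window of 300 bases was found for 211 members (77.3%). It held a median of 3 CpG (quartiles 2 and 6), against 2 (1 and 3) for 2721 other silent genes and 13 (4 and 24) for 17797 genes of the whole table. At least 10 CpG were present in 28 member promoters (13.3%), in 5.62% of those of other silent genes and in 57.8% over the table. With chemosensory receptors left out on both sides, a comparison added after the values were seen, the medians were 4 and 3 CpG and the shares with at least 10 CpG 15.1% and 9.63%. The median was 3 for the genes on in either mutant taken alone. TATAAA, searched on both strands, was in 22.3% of member promoters, 34.1% of those of other silent genes and 13.0% over the table. For CCAAT the shares were 35.5%, 42% and 39.1%, and for GGGCGG, which contains a CpG, 16.1%, 7.17% and 47.0%. With chemosensory receptors left out, members and other silent genes lay closer together. TATAAA was then in 21.1% and 29.1%, CCAAT in 35.7% and 40.8%, and GGGCGG in 18.4% and 11.7%. No error can be given for these shares, since genes are not replicates.

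**Figure D5:**
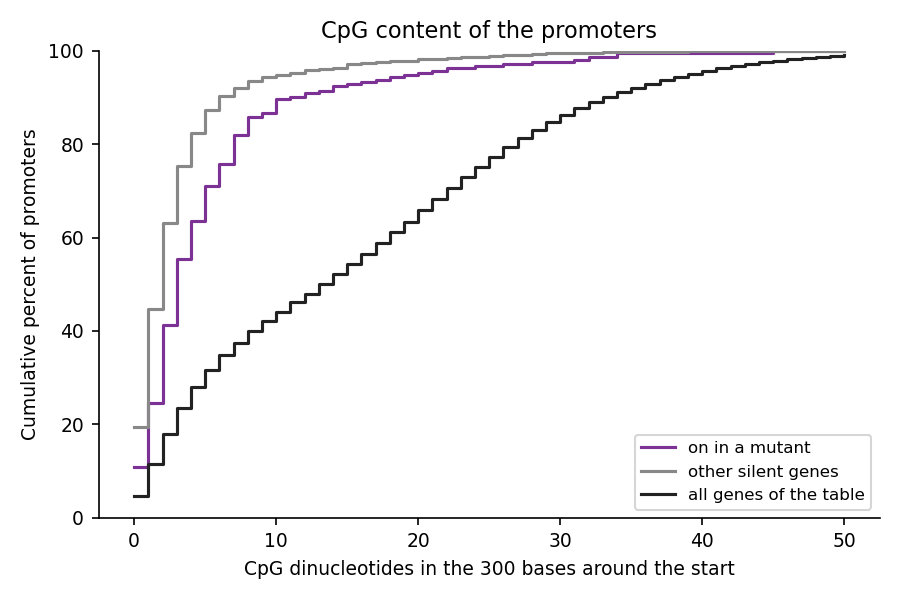
Cumulative percent of promoters (y axis) with up to a given number of CpG dinucleotides in the 300 bases around the RefSeq start (x axis), for the genes on in a mutant, the other silent genes and all genes of the table except Mir, Snor and the genes left out by name. The medians are 3, 2 and 13.

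Members were also set beside the genes that the study tied to an active retrotransposon in C57BL/6J animals, 37 for Dnmt3l mutants and 13 for Pld6 mutants. Each list held 4 silent genes, and all 4 were members, against 7.36% of all silent genes. The study had taken the listed genes from those with raised expression in L/Z spermatocytes of the same knockouts. A high share was therefore likely from the start, and it is no measure of a link between members and retrotransposons. Gc, Reg2 and Il23r stand on both lists, E330017A01Rik on that for Dnmt3l and Tmc2 on that for Pld6. Il23r was at 0 fragments in Dnmt3L KO here. Of the genes left out by name, 3 on the Dnmt3l list (Cdh19, Afm and 2310043L19Rik) and 1 on the Pld6 list (Afm) met the limits too. E330017A01Rik, on chromosome 16, was at 0 in both controls and in Pld6 KO and had 40 fragments in Dnmt3L KO, at least 27.9-fold above the controls.

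The limits cut through a continuous range. In the higher mutant 24 members stood at exactly 10 fragments, among them Fpr1 and Cyp4a14, and 34 silent genes had 9 or a fraction more and stayed out, such as 2010106C02Rik with 9 in Dnmt3L KO. In the controls, 39 members had 3 fragments, among them Tmc2 and Casp4, and 48 genes with a mutant value of at least 10 stayed out because a control had 4, or between 3 and 4. Of these Pkhd1, a protein of kidney and bile duct cilia, had 4 and 3 fragments in Dnmt3L_Het and Pld6 WT, 320 in Dnmt3L KO and 382 in Pld6 KO, and Clca4 had 0 and 4, then 77 and 170.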

How the data were processed

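PolyA(+) RNA of FACS-purified L/Z spermatocytes was made into libraries with a strand-keeping kit and sequenced as 50-bp single-end reads, 1 library per genotype. Per the labels, the authors aligned reads with TopHat and quantified genes with Cuffdiff on mm10; versions are not given in the sources used here. The deposited table gives, for each of 23980 genes and each library, an estimated count of fragments before scaling (97.3% to 97.4% whole numbers) and FPKM, which the authors' tool scaled to gene length and depth. Of these values 31 were marked as failed, none in a member. The totals of fragments lie above the read numbers that the study's methods give for L/Z libraries, and why was not resolved.

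The limits of 3 and 10 fragments were applied to the estimated counts. Of the genes that met them, 20 were named Mir or Snor and 4 were among those left out by name. Folds are fragments divided by the library total, set over the same value in both controls pooled. Where both controls were at 0 (estimates under 0.5 of a fragment over both included), the floor was set at 3 fragments over both libraries together. The fold is then a lower bound against that floor and leaves out the counting error of the mutant. Otherwise the exact 95% interval conditions on the sum of the counts (Clopper-Pearson). With 1 library per genotype and a choice made on the same values, no test was made. The selection and the interval were tested on simulated data. Positions, types and promoters came from RefSeq (GRCm38.p6), exons and transcript lengths from GENCODE M21. Scripts ran in Python 3.11.15 with pandas 2.3.3, NumPy 2.4.6, SciPy 1.17.1 and matplotlib 3.10.9.

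The members and lists were chosen with earlier results of these data known, and the functional classes were assigned by hand after the members had been seen. Named are the 12 genes with the most fragments in each mutant, up to 15 on in both, up to 4 per family, those on the study's lists and those within 100 kb of another member. Other names are examples chosen after their values were seen, and 2 genes are not reported here. Alternatives changed the limits, the scaling and the controls used. Reads of retrotransposons and of parental alleles were not analysed here.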

Additional observations from a re-analysis of the deposited data

How the results depend on the processing

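The number of genes depended on the limits and on which control was used. With 0 fragments allowed in the controls 103 genes were left, 46 on in Pld6 KO, 66 in Dnmt3L KO and 9 in both. At a minimum of 5 fragments there were 459 genes (211, 307 and 59), and at 20 there were 86 (36, 60 and 10). With Pld6 WT as the only control there were 542 genes (228, 405 and 91), with Dnmt3L_Het as the only control 654 (392, 413 and 151), and with Pld6 KO set against Pld6 WT alone and Dnmt3L KO against Dnmt3L_Het alone 613 (228 and 413). Scaled to the depth of Pld6 KO, the shallowest library, 136 genes were on in Pld6 KO and 101 in Dnmt3L KO, so the order of the mutants turned; with median-of-ratios size factors the counts were 129 and 150. The other changes, a control limit of 5 and Mir and Snor genes kept, moved each count by less than 1.5 times. The median CpG number was 3 without the 50 bases after the start and 4 without chemosensory receptors.

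Size factors multiplied the 117 folds of the named genes by 0.967 to 1.07. As a ratio of FPKM, computed for 70 of them, 67 stayed within their counting interval, and the other 3 (Ccl21b, Gm3020 and Il4i1, whose control estimates are fractions of a fragment) have a lower bound in place of an interval. No paired analysis was possible because each genotype has 1 library. Depth limits these genes most at their low end, where a count of 0 does not exclude a low level.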
